A study of Mus musculus with 20 samples.

Results

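The lymph node that drains the ileum was set against the node that drains the cecum and colon, to ask how these neighbouring gut nodes differ when mature T and B lymphocytes are missing. The comparison rests on the 4 ileal and 4 ceco-colonic libraries, 8 of the 20 libraries of the series, picked by the node named in their labels. All mice were Rag1-/- (B6.129S7-Rag1tm1Mom/J) and 9 weeks old, so every group shares this mutation and no group received a treatment. Polyadenylated RNA was taken from the whole node and measured in bulk, with 4 libraries each also from duodenal, jejunal and inguinal nodes. Whether the 4 libraries of a node came from separate mice is not stated, and p-values therefore reflect a spread among libraries, not among mice known to be separate. That spread was estimated within the nodes from all 20 libraries, not from the 8 compared alone. A bulk measurement cannot separate fewer cells of a type from less RNA per cell.

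Lymph nodes of the mesentery lie in fat, and each receives lymph from its own stretch of intestine. That lymph brings dendritic cells, antigen and lipid, which meet a scaffold of fibroblastic reticular cells, lymphatic endothelium, blood vessels and resident macrophages. The ileum absorbs bile acids and is the most microbe-rich stretch of the small intestine, while the cecum and colon hold the densest microbiota of the gut. Rag1 encodes a subunit of the recombinase that assembles antigen receptor genes. Without it innate cells, innate lymphoid cells and stroma make up the node.

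Estimated counts summed to 184.0 to 213.2 M in the ileal and 171.1 to 273.3 M in the ceco-colonic libraries, where M is the mega unit and CPM is counts per M, so the shallowest library held 171.1 counts for each CPM. Mitochondrial genes took 1.40% to 1.97% and 1.15% to 1.72% of the counts. Spearman correlations over all genes tested lay between 0.987 and 0.991 within these nodes and between 0.979 and 0.987 across them. Rag1 itself was counted at 1.98, 2.53, 2.25 and 2.13 CPM in ileal libraries 1 to 4 and at 2.80, 3.05, 2.19 and 2.74 CPM in ceco-colonic libraries 1 to 4. These ranges overlapped, and because every mouse carried the mutation the level checks no label. Nkx2-3, a homeodomain factor of gut mesenchyme that marks nodes of the gut, stood at 22.03 ± 1.29 CPM (mean ± SD, n = 4 here and below) in ileal, 22.2 ± 0.520 CPM in ceco-colonic and 0.0344 ± 0.0162 CPM in inguinal nodes.

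Compared with the ceco-colonic node, the ileal node was higher in the collagen gene Col6a6 (14.4-fold in the means), in 11 of 14 lymphatic endothelial genes, in 11 of 19 macrophage genes and in 9 of 14 adipocyte genes. It was lower in 7 of 9 posterior Hox genes, in 8 of 12 eosinophil and neutrophil genes, and in single mediators such as Ccl8 (9.14-fold), Cxcl13 (4.15-fold) and Il12b (3.95-fold). Lyve1 and Marco are on both the lymphatic and the macrophage list. In all, 3750 of 29411 genes tested, or 12.8%, were called at an adjusted p under 0.05 (edgeR's quasi-likelihood test, Benjamini-Hochberg adjustment over all genes). Of these, 2186 were higher (7.43% of the genes tested) and 1564 lower (5.32%) in the ileal node, and 921 differed by at least 2-fold (3.13%, made up of 1.89% higher and 1.24% lower). Counts of called genes in the lists are to be read beside the shares of 7.43% higher and 5.32% lower. The median log2 fold change was -0.01 over all genes, and its median size over called genes was 0.60. The libraries of the 2 nodes did not overlap for 5426 genes (18.4%).

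**Figure D1:**
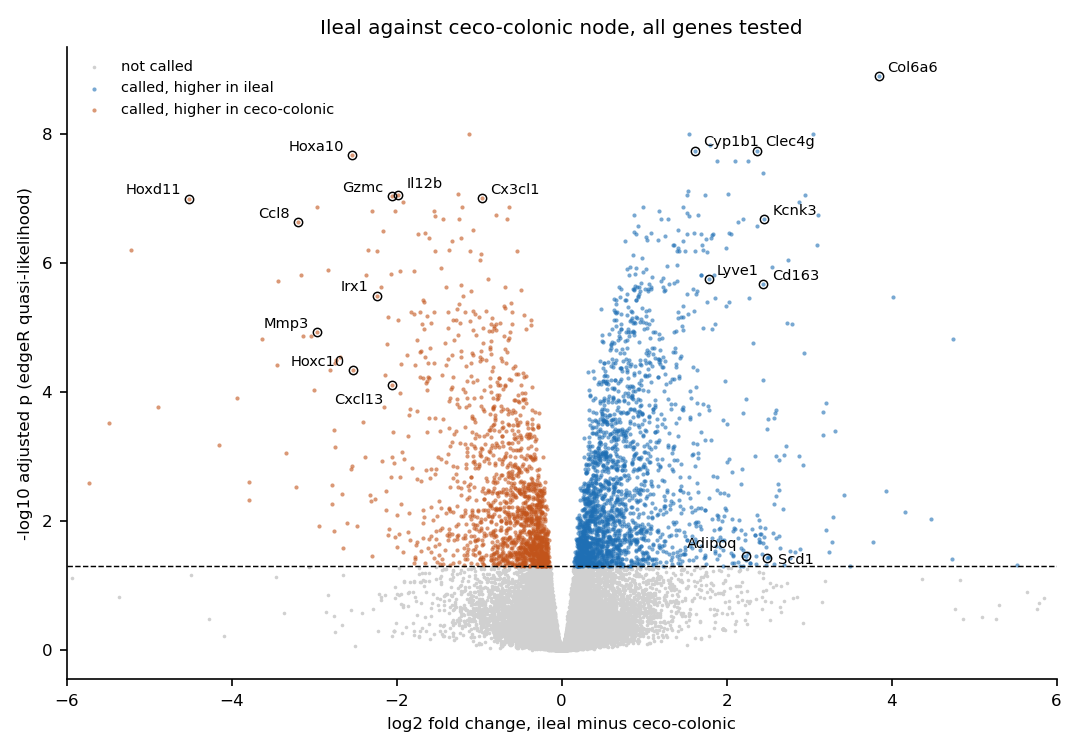
Each point is 1 of 29411 genes, with the log2 fold change of the ileal minus the ceco-colonic node on the x axis and -log10 of the adjusted p on the y axis. The dashed line marks an adjusted p of 0.05, and 16 genes lie outside the axis limits of 6 in either direction, 9 of them called. Col6a6 stands highest on the ileal side, and Hoxd11, Ccl8 and Hoxa10 lie far out on the ceco-colonic side.

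Col6a6 (ENSMUSG00000043719), a chain of the beaded-filament collagen VI, had the largest fold change of the genes that were called, reached 5 CPM and did not overlap between the nodes. It stood at 31.3, 23.5, 32.6 and 37.7 CPM in ileal libraries 1 to 4 and at 2.48, 1.77, 2.42 and 1.98 CPM in ceco-colonic libraries 1 to 4. All 4 ileal libraries lay far above all 4 ceco-colonic libraries, and the means differed 14.4-fold (log2 fold change 3.85 ± 0.201 (SE), adjusted p = 1.26e-09). The jejunal (34.01 ± 8.86 CPM), duodenal (26.6 ± 6.82 CPM) and inguinal (38.01 ± 2.49 CPM) nodes were at the ileal level, so among the 5 nodes the ceco-colonic one stood apart for this gene. Next by fold change among the genes also called with the adipocyte level as a covariate came Kcnk3, which encodes a potassium leak channel (18.9 ± 3.15 against 3.45 ± 0.894 CPM), Cd163, the hemoglobin scavenger receptor of resident macrophages (22.6 ± 2.88 against 4.15 ± 1.28 CPM), and Clec4g, a C-type lectin of sinusoidal endothelium (26.7 ± 1.48 against 5.17 ± 1.30 CPM).

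On the other side, Ccl8 (ENSMUSG00000009185), a chemokine for monocytes and other CCR2- and CCR8-bearing cells, had the largest negative fold change under the same rule. It stood at 3.48, 5.74, 2.74 and 6.24 CPM in the ileal and 42.3, 52.1, 22.4 and 49.5 CPM in the ceco-colonic libraries, 9.14-fold apart in the means (log2 fold change -3.19 ± 0.278, adjusted p = 2.35e-07). Mmp3, the matrix-cleaving enzyme stromelysin, followed with 7.46, 26.4, 8.36 and 10.6 CPM against 102, 141, 73.7 and 96.8 CPM (log2 fold change -2.97 ± 0.366, adjusted p = 1.18e-05). The groups did not overlap for either gene, although ileal library 2 held more Mmp3 than the other ileal libraries. Il12b, the subunit shared by interleukins 12 and 23, stood at 27.2 ± 3.48 against 108 ± 16.9 CPM, and Gzmc, a granzyme of cytotoxic and innate lymphoid cells, at 4.81 ± 0.798 against 20.03 ± 3.63 CPM. Other genes among the 15 lowest fold changes were Pla2g5, a secreted phospholipase (2.79 ± 0.455 against 11.7 ± 0.899 CPM), P4ha3, a subunit of collagen prolyl hydroxylase (1.25 ± 0.143 against 5.72 ± 0.367 CPM), Alox15, a lipoxygenase of eosinophils and macrophages (2.59 ± 0.398 against 8.74 ± 1.33 CPM), and Dsc2, a desmosomal cadherin (8.17 ± 2.12 against 26.8 ± 2.57 CPM). All 15 of these genes were called with the adipocyte covariate too.

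**Figure D2:**
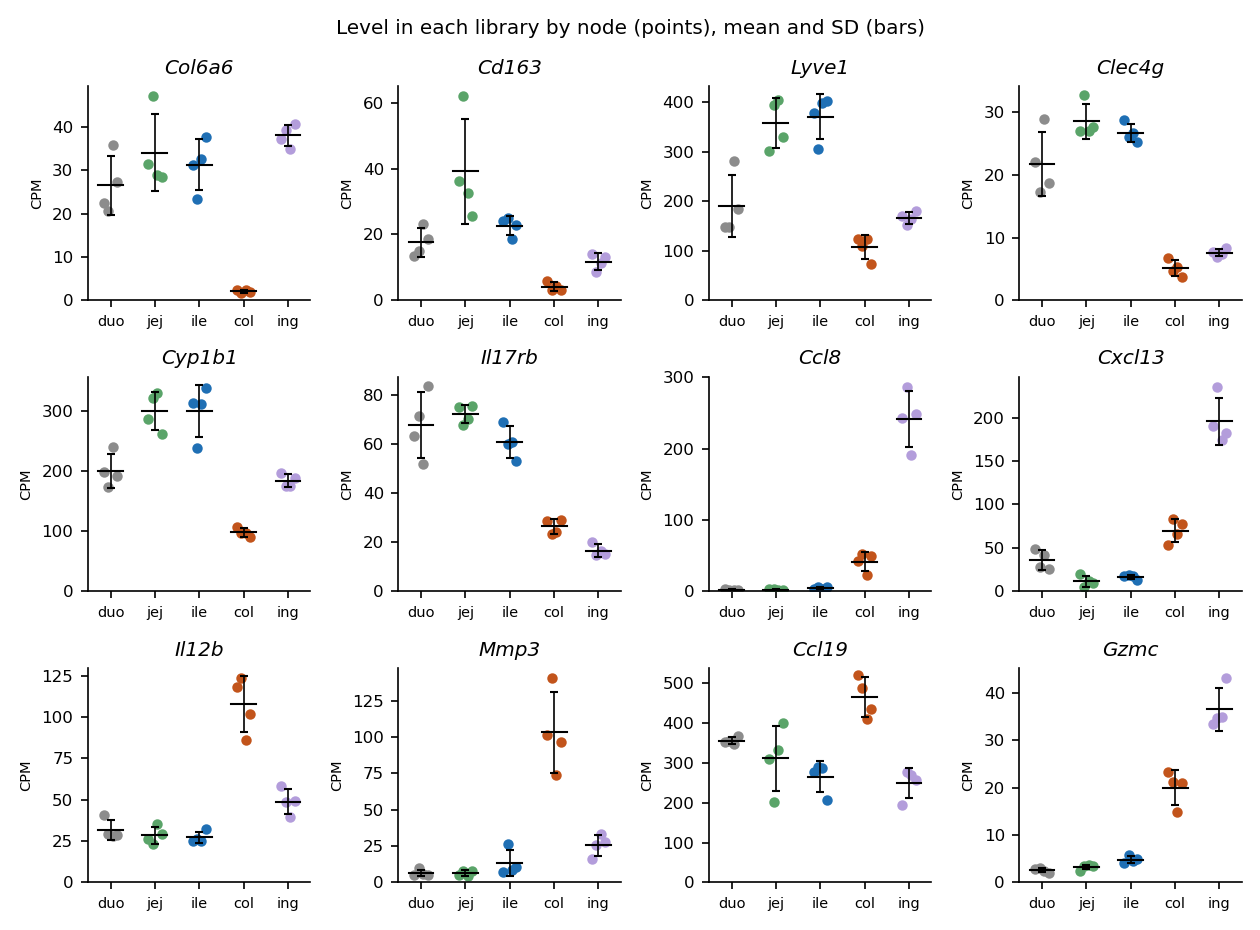
Each panel gives 1 gene's level in CPM on the y axis for the duodenal (duo), jejunal (jej), ileal (ile), ceco-colonic (col) and inguinal (ing) node, with 1 point per library and bars for mean and SD (n = 4). The ileal points lie above the ceco-colonic points for Col6a6, Cd163, Lyve1, Clec4g, Cyp1b1 and Il17rb and below them for Ccl8, Cxcl13, Il12b, Mmp3, Ccl19 and Gzmc, with no overlap.

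Adipocyte genes differed in the same comparison, and their level is given here because it bears on the genes that follow. Adipoq, which encodes the fat-cell hormone adiponectin, stood at 98.9, 67.5, 54.9 and 93.7 CPM in the ileal and 28.4, 6.03, 19.5 and 12.9 CPM in the ceco-colonic libraries. No library of one node reached into the range of the other, and the log2 fold change was 2.24 ± 0.681 (adjusted p = 0.0348). Of 14 adipocyte genes, 9 were higher in the ileal node, none was lower, and the median log2 fold change was 2.05, beside -0.01 over all genes. Their summed level was 1091 to 1758 CPM in ileal, 328 to 651 CPM in ceco-colonic and 943 to 2894 CPM in jejunal libraries, and all 14 were tested. Adipoq was not called without ileal library 1 or 4 or ceco-colonic library 2, 3 or 4 (adjusted p 0.0591 to 0.111). Without 1 library the count of 9 fell to between 1 (without ceco-colonic library 2) and 7, with 2, 3, 4 and 5 without ceco-colonic library 4, ileal library 1, ileal library 4 and ceco-colonic library 3.

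With the log2 summed adipocyte level as a covariate, 1100 genes (3.74%) were called, 1036 of them among the 3750. The covariate itself separates the nodes, so adipocyte content and node cannot be told apart in this fit. A call could end there while the fold change kept its size, as for Hoxa3, at -0.43 ± 0.107 (SE) without and -0.49 ± 0.149 (SE) with the covariate. Of the 15 highest fold changes, 11 were no longer called. Those are led by Agt, angiotensinogen (6.58 ± 1.13 against 0.997 ± 0.608 CPM, covariate adjusted p = 0.0671), Cyp2e1, a cytochrome of fat and liver (129 ± 31.98 against 20.9 ± 13.6 CPM, 0.0883), and Scd1, the desaturase that makes monounsaturated fatty acids (764 ± 298 against 136 ± 70.2 CPM, 0.669). The other 4 were called with the covariate too, at log2 fold changes of 3.43 for Col6a6, 2.10 for Clec4g, 1.88 for Kcnk3 and 1.67 for Cd163. For Scd1 the call also ended without ileal library 1 or 4 or ceco-colonic library 2, 3 or 4 (adjusted p 0.0647 to 0.117). Cfd, Adrb3 and Cidec, also among the 11, are summed in the covariate, so the end of their calls is built into that fit.

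**Figure D3:**
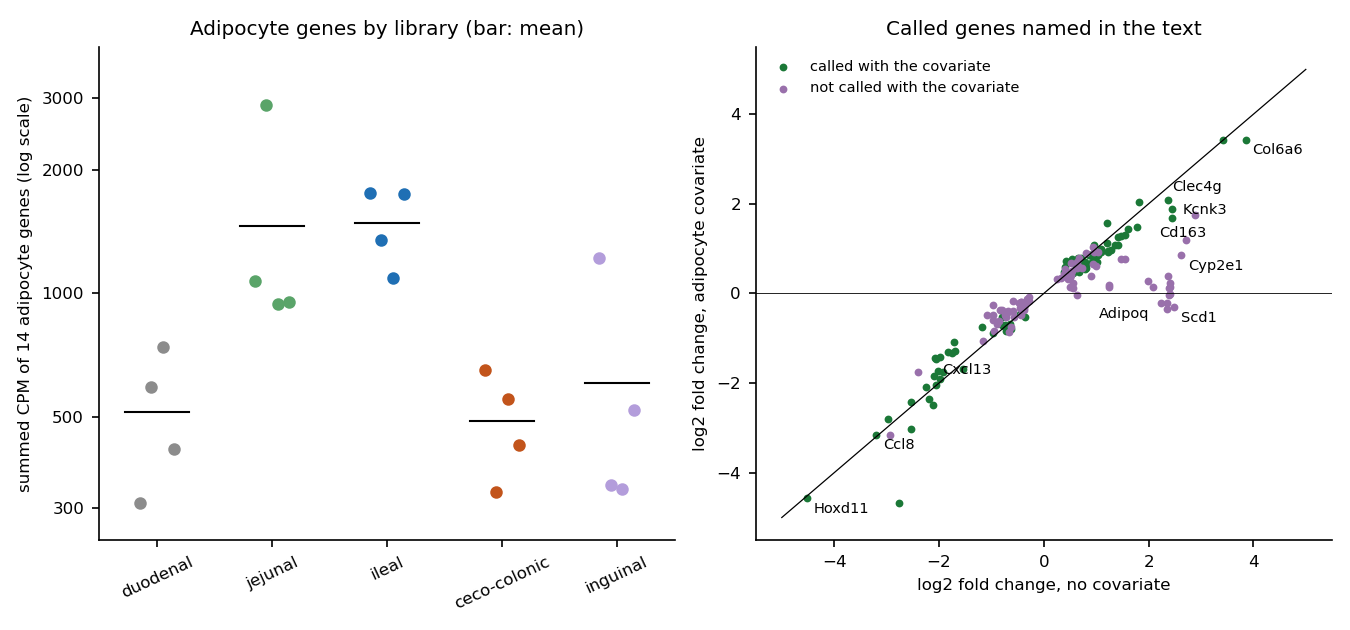
Left, summed CPM of 14 adipocyte genes per library on a log scale for the 5 nodes, with bars at the means. The 4 ileal libraries (1091 to 1758 CPM) lie above the 4 ceco-colonic ones (328 to 651 CPM). Right, log2 fold change of the called genes among 189 picked by the naming rule given below, not all of them named in the text. The y axis gives it with the adipocyte covariate and the x axis without, and the diagonal marks equal values. Adipoq is 1 of the 14 genes summed in the covariate, so its place just under 0 is built into that fit, and Col6a6, Ccl8 and Hoxd11 lie near the diagonal.

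Hox genes encode homeodomain factors that specify position along the body axis, with higher paralog numbers expressed toward the tail end. Posterior members separated the 2 nodes, with 7 of 9 tested genes of paralog groups 9 to 13 lower in the ileal node, none higher, and a median log2 fold change of -1.54. Hoxa10 stood at 0.642, 0.759, 0.510 and 0.617 CPM in the ileal and 3.63, 4.47, 3.30 and 3.33 CPM in the ceco-colonic libraries (log2 fold change -2.54 ± 0.174, adjusted p = 2.13e-08). Hoxd11 lay at 0.0604, 0.0568, 0.0722 and 0.0509 CPM against 1.25, 1.78, 1.63 and 0.885 CPM (-4.51 ± 0.356, adjusted p = 1.01e-07). Every ceco-colonic library was above every ileal library for both genes, and Hoxd11 was near its ileal level in the other nodes too, with 0.0362 ± 0.0125 CPM in jejunal and 0.0528 ± 0.0302 CPM in inguinal nodes. Hoxa9 (1.91 ± 0.175 against 5.56 ± 0.468 CPM), Hoxc10 (1.17 ± 0.453 against 6.73 ± 0.468 CPM) and Hoxc9 (3.36 ± 0.579 against 5.18 ± 0.208 CPM) were lower in the ileal node as well. Hoxa11 was counted at 0, 0.0516, 0.0103 and 0.0340 CPM and 0.235, 0.261, 0.157 and 0.0892 CPM, levels that rest on few counts. Hoxd9 (16.2 ± 1.53 against 16.5 ± 0.565 CPM) and Hoxd10 (3.83 ± 0.600 against 3.59 ± 0.199 CPM) were not called. Hoxb9 was called at a log2 fold change of -0.39 but not without ileal library 2, 3 or 4 or ceco-colonic library 1, 3 or 4 (adjusted p 0.0599 to 0.0847). Of the 16 genes listed, Hoxb13, Hoxc12 and Hoxd12 were at 0 in all 8 libraries and the remaining untested genes did not pass the filter on low counts.

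Hox genes of the middle groups went the other way in part. Of 8 genes of groups 6 to 8, 4 were higher and 1 lower in the ileal node (median 0.20). Hoxc8 stood at 13.9, 11.9, 12.7 and 13.8 CPM against 6.75, 6.51, 6.003 and 6.65 CPM, the largest difference among them (log2 fold change 1.01 ± 0.109, adjusted p = 2.56e-06), followed by Hoxb8 (5.73 ± 0.583 against 3.17 ± 0.316 CPM), Hoxb7 (9.66 ± 0.794 against 5.90 ± 0.614 CPM) and Hoxb6 (9.64 ± 1.51 against 6.63 ± 1.05 CPM). Hoxa7 was lower (5.84 ± 0.393 against 7.53 ± 0.640 CPM), but not called without ileal library 2, 3 or 4 or ceco-colonic library 1 or 4 (adjusted p 0.0554 to 0.103). Among 10 genes of groups 3 to 5, 4 were higher and 1 lower (median 0.15). Hoxb3 (9.20 ± 1.12 against 6.67 ± 0.820 CPM), Hoxb5 (3.90 ± 0.374 against 2.74 ± 0.207 CPM) and Hoxc4 (6.54 ± 0.446 against 4.81 ± 0.552 CPM) were higher and Hoxa3 lower (3.98 ± 0.148 against 5.35 ± 0.579 CPM). Hoxb4 was called at a log2 fold change of 0.24, a call that ended without any single library except ceco-colonic library 3 (adjusted p 0.0511 to 0.178). Within the HoxA cluster the called genes were all lower in the ileal node, and within the HoxB cluster all except Hoxb9 were higher. With the adipocyte covariate, Hoxa9, Hoxa10, Hoxc9, Hoxc10 and Hoxd11 kept their calls, as did Hoxa7, Hoxb7, Hoxb8, Hoxc8 and Hoxc4, while Hoxb3, Hoxb4, Hoxb5, Hoxb6, Hoxb9, Hoxa3 and Hoxa11 did not (adjusted p 0.0835 to 0.300). The log2 fold changes of these 7 genes kept their sign, from 0.46 without to 0.32 with the covariate for Hoxb3, from 0.24 to 0.33 for Hoxb4, from 0.51 to 0.37 for Hoxb5, from 0.54 to 0.51 for Hoxb6, from -0.39 to -0.36 for Hoxb9, from -0.43 to -0.49 for Hoxa3 and from -2.94 to -3.15 for Hoxa11.

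**Figure D4:**
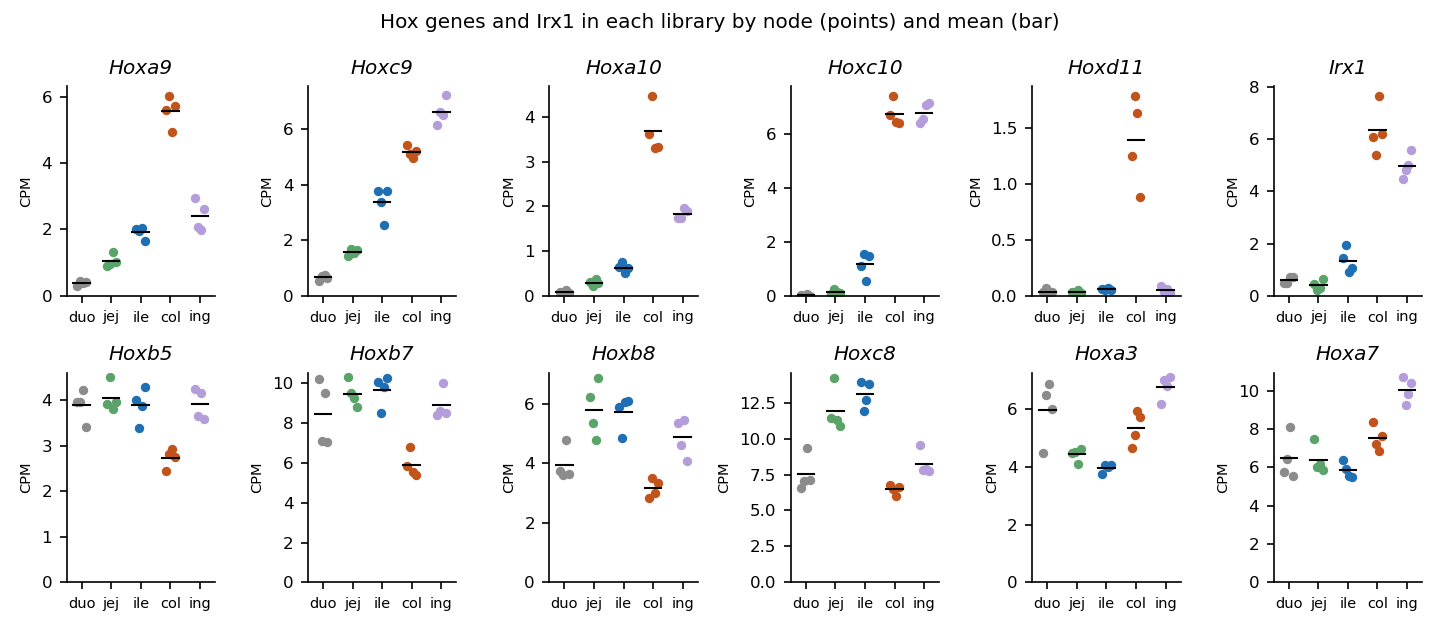
Levels in CPM (y axis) of 11 Hox genes and Irx1 in the libraries of the 5 nodes, abbreviated as duo, jej, ile, col and ing, with 1 point per library and a bar at the mean (n = 4). In the top row the ceco-colonic libraries lie above all ileal libraries, and for Hoxa9, Hoxc9, Hoxa10 and Hoxc10 the ileal libraries in turn lie above the jejunal ones. In the bottom row Hoxb5, Hoxb7, Hoxb8 and Hoxc8 are higher in the ileal than in the ceco-colonic libraries, and Hoxa3 and Hoxa7 lower.

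Other transcription factors of regional identity differed as well, with 11 of 33 higher and 4 lower in the ileal node (median 0.24). Gata4, a zinc-finger factor that in intestinal epithelium marks the segments upstream of the distal ileum, stood at 6.49, 5.21, 6.71 and 6.99 CPM against 2.40, 2.36, 2.30 and 2.11 CPM (log2 fold change 1.47 ± 0.136, adjusted p = 4.64e-07). Its ileal and ceco-colonic libraries were well apart. Irx3 (16.1 ± 2.74 against 8.33 ± 0.436 CPM), Gata6 (29.2 ± 3.29 against 16.6 ± 2.37 CPM) and Meis2 (31.7 ± 2.97 against 18.3 ± 2.08 CPM), developmental factors of mesenchyme among other tissues, were higher too. Tbx18, a T-box factor of mural and mesothelial-derived cells, was lower in the ileal node, at 0.437, 0.423, 0.330 and 0.476 CPM against 1.67, 1.81, 1.73 and 2.04 CPM (-2.12 ± 0.271, adjusted p = 1.80e-05). Irx1, outside the lists and among the 15 lowest fold changes, stood at 1.34 ± 0.452 against 6.33 ± 0.954 CPM. All 6 were called with the adipocyte covariate. Of the 33 listed genes tested, 5 were then called higher and 1 lower. Tbx3 and Tbx5, also lower, are named after their values were seen, and without ceco-colonic library 1 the lower count of 4 became 2.

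Retinoic acid made from vitamin A imprints gut identity on lymphocytes and stroma. Of 19 tested genes of retinoid metabolism and response, 8 were higher and 3 lower in the ileal node (median 0.37). Dhrs3, which turns retinaldehyde back into retinol and is induced by retinoic acid, stood at 80.7, 69.4, 79.3 and 93.3 CPM against 42.4, 41.1, 44.5 and 47.2 CPM with no overlap (log2 fold change 0.88 ± 0.0943, adjusted p = 2.54e-06). Higher as well were Rarb, a retinoic acid receptor (2.71 ± 0.258 against 1.41 ± 0.408 CPM), Rxra, its partner (261 ± 29.3 against 181 ± 24.04 CPM), and Aldh1a1, a retinaldehyde dehydrogenase (13.5 ± 1.86 against 4.58 ± 1.13 CPM). These 3 were not called with the adipocyte covariate (adjusted p 0.0603 to 0.266). Aldh1a2, the retinaldehyde dehydrogenase of reticular and dendritic cells, had 218 ± 46.5 against 169 ± 13.7 CPM, without a call (adjusted p = 0.118). Cyp26b1, which degrades retinoic acid, lay at 29.05, 19.05, 24.1 and 52.1 CPM in the ileal and 19.6, 19.4, 20.8 and 33.2 CPM in the ceco-colonic libraries and was not called either (adjusted p = 0.516). Library 4 was the highest of its group in both nodes for this gene. The 3 lower genes, named after their values were seen, were Stra6, Crabp2 and Rarg. The higher count of 8 became 5 without ileal library 1 or 4 or ceco-colonic library 4, and the lower count of 3 became 1 without ceco-colonic library 2 or 4 or ileal library 4. With the adipocyte covariate 2 of the 19 genes were called higher and none lower.

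Fibroblastic reticular cells form the scaffold of the node and, in the T zone, make the chemokines that gather CCR7-bearing cells. Of 10 T-zone reticular genes, 6 were lower and none higher in the ileal node (median -0.80), beside 5.32% lower among all genes tested. Grem1, a BMP antagonist that marks reticular cells supporting dendritic cells, stood at 81.4, 74.3, 89.6 and 67.3 CPM against 193, 192, 164 and 155 CPM (log2 fold change -1.17 ± 0.175, adjusted p = 1.00e-04). Ccl19, a ligand of CCR7, lay at 277, 290.3, 289 and 208 CPM against 522, 489, 412 and 435 CPM (-0.81 ± 0.155, adjusted p = 0.00124). Neither gene's libraries overlapped between the nodes. Tnfsf13b, the survival factor BAFF (45.5 ± 4.34 against 78.8 ± 8.90 CPM), and Bst1, a reticular cell ectoenzyme (21.7 ± 2.53 against 38.96 ± 3.13 CPM), were lower too, as was Ccl21a, the other CCR7 ligand (1768 ± 408 against 3445 ± 344 CPM), whose reads are shared with near-identical copies. With the adipocyte covariate Grem1 and Tnfsf13b were called and Ccl19, Ccl21a and Bst1 were not (adjusted p 0.191 to 0.530). Only 2 of the 10 genes were then called lower, with a median of -0.31.

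Follicular and marginal reticular cells gave 3 higher and 4 lower genes of 10 (median 0.06). Cxcl13, the chemokine that organizes B-cell follicles, stood at 17.3, 19.3, 17.4 and 13.4 CPM in the ileal and 53.5, 83.5, 65.6 and 77.7 CPM in the ceco-colonic libraries, 4.15-fold apart in the means (log2 fold change -2.05 ± 0.300, adjusted p = 7.76e-05). Its level was higher still in the inguinal libraries, at 174 to 235 CPM. Madcam1, the addressin that binds gut-homing leukocytes, was lower in the ileal node (64.96 ± 9.76 against 128 ± 15.4 CPM), and so was Fcer2a, the low-affinity IgE receptor CD23 (0.861 ± 0.0734 against 1.42 ± 0.0956 CPM). Tnfsf11, the cytokine RANKL of marginal reticular cells, went the other way (51.4 ± 1.84 against 38.3 ± 4.59 CPM) but was not called without ceco-colonic library 3 (adjusted p = 0.0506). Madcam1 was not called with the adipocyte covariate (adjusted p = 0.179), and the higher count of 3 was 1 without ceco-colonic library 3. With the covariate 1 of the 10 genes was called higher and 2 lower.

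Medullary reticular cells surround the medullary cords and sinuses, and of their 10 genes 3 were higher and 2 lower (median 0.03). Inmt, a methyltransferase used as their marker, stood at 198, 143, 166 and 183 CPM against 93.7, 47.5, 74.3 and 67.4 CPM (log2 fold change 1.29 ± 0.196, adjusted p = 1.29e-04). Nr4a2, an orphan nuclear receptor, was higher as well (25.5 ± 2.53 against 14.7 ± 2.17 CPM), with no overlap between the nodes for either gene. Nrg1, a growth factor of the EGF family, was lower (1.997 ± 0.418 against 3.21 ± 0.462 CPM), though not called with the adipocyte covariate (adjusted p = 0.356). Il33, an alarmin of reticular cells, had 335 ± 24.5 against 307 ± 27.2 CPM, without a call (adjusted p = 0.533). With the covariate 2 of the 10 genes were called higher and none lower.

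Matrix genes of fibroblasts were higher in the ileal node in 8 of 21 cases and lower in 2 (median 0.06). Postn, periostin, stood at 369, 336, 349 and 384 CPM against 129.99, 119.6, 118 and 125 CPM (log2 fold change 1.54 ± 0.0958, adjusted p = 9.96e-09), a gap of 2.91-fold with little spread in either node. Dcn, the small proteoglycan decorin, was higher by less (1152 ± 33.4 against 788 ± 59.8 CPM). The count of 8 became 4 without ceco-colonic library 1, 4 without ceco-colonic library 4, 5 without ceco-colonic library 2, 5 without ileal library 3 and 2 without ileal library 4. Of 24 secreted modulators of Wnt and BMP signalling, 11 were higher and 2 lower (median 0.56). They included Wnt2b, a Wnt ligand (32.04 ± 3.44 against 17.04 ± 1.64 CPM), Wnt2 (4.21 ± 1.29 against 1.64 ± 0.296 CPM), Rspo3, which boosts Wnt signalling (8.12 ± 0.588 against 4.25 ± 0.171 CPM), the Wnt antagonist Sfrp1 (33.5 ± 3.26 against 16.3 ± 1.44 CPM) and the BMP antagonist Chrdl1 (58.9 ± 4.63 against 40.2 ± 2.78 CPM). These 7 genes, from Postn on, were all called with the adipocyte covariate, and Grem1, also on this list, was lower. With the covariate the matrix list kept only 2 genes called higher and 0 lower. The Wnt and BMP list had 8 higher and 2 lower.

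Lymphatic endothelium lines the sinuses through which lymph crosses the node. Of 14 lymphatic endothelial genes, 11 were higher in the ileal node and 1, Ccl21a, was lower (median 1.08), beside 7.43% higher among all genes. Lyve1, a hyaluronan receptor of lymphatic endothelium and some macrophages, stood at 379, 305, 398 and 402 CPM in the ileal and 124, 109, 125 and 73.9 CPM in the ceco-colonic libraries (log2 fold change 1.78 ± 0.185, adjusted p = 1.77e-06). Clec4g lay at 28.8, 26.1, 26.7 and 25.3 CPM against 6.84, 4.69, 5.39 and 3.76 CPM (2.37 ± 0.159, adjusted p = 1.82e-08). Both gaps were far wider than the spread within a node. Flt4, the receptor VEGFR3 (175 ± 17.8 against 66.04 ± 12.1 CPM), Stab2, a scavenger receptor of sinus endothelium (314 ± 22.7 against 134 ± 23.95 CPM), and Marco, which takes up bacteria in medullary macrophages and sinus endothelium (1504 ± 187 against 704 ± 83.6 CPM), followed. Without any 1 of the 8 libraries the count was 10 or 11, and with the adipocyte covariate it was 8, these 5 genes included. The summed level of the 14 genes, Ccl21a included, overlapped at 4513 to 5098 CPM in ileal and 4462 to 5384 CPM in ceco-colonic libraries.

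Blood vessel genes were mixed, with 4 of 17 higher and 2 lower (median -0.13). The general endothelial genes Kdr, the receptor VEGFR2 (308 ± 23.4 against 179 ± 11.97 CPM), Cdh5, VE-cadherin (183 ± 14.9 against 128 ± 5.16 CPM), and Pecam1 (401 ± 25.3 against 318 ± 14.5 CPM) were higher in the ileal node, as was Cd36, a fatty acid transporter of capillaries, fat cells and macrophages (175 ± 21.6 against 73.6 ± 13.9 CPM). With the adipocyte covariate Kdr was called (adjusted p = 0.00242) and Cdh5, Pecam1 and Cd36 were not (adjusted p 0.0765 to 0.558). The 2 lower genes belong to high endothelial venules, through which leukocytes enter the node. They are Madcam1, at 75.3, 60.6, 70.4 and 53.6 CPM against 120.02, 144, 137 and 110.4 CPM (log2 fold change -0.98 ± 0.183, adjusted p = 9.90e-04), and Fut7, a fucosyltransferase that builds selectin ligands, named after its values were seen (10.5 against 18.1 CPM in the means, log2 fold change -0.79, adjusted p = 0.0305). With the covariate no gene of this list was called lower, and without ceco-colonic library 2 or 4 or ileal library 2 or 4 only 1 was. Glycam1, a mucin-like selectin ligand (log2 fold change -0.82, adjusted p = 0.104), Chst4, a sulfotransferase (-0.85, 0.0861), and Sele, E-selectin (-0.70, 0.0872), were not called.

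Macrophage genes were higher in the ileal node in 11 of 19 cases and lower in 1 (median 0.39). Over all genes tested 7.43% were higher and 5.32% lower. Cd163 stood at 23.96, 25.04, 18.5 and 22.9 CPM against 5.91, 3.14, 4.30 and 3.26 CPM (log2 fold change 2.44 ± 0.258, adjusted p = 2.14e-06). Marco lay at 1579.98, 1279, 1443 and 1716 CPM against 701, 809, 700.1 and 605 CPM (1.10 ± 0.130, adjusted p = 7.67e-06). The libraries of the nodes did not overlap for either gene, and the pan-macrophage genes Adgre1, which encodes F4/80 (192 ± 22.2 against 113 ± 9.41 CPM), and Csf1r, the receptor for the macrophage growth factor CSF1 (1026 ± 123 against 667 ± 48.3 CPM), differed by less. Timd4, a phosphatidylserine receptor of resident macrophages, was the 1 lower gene (31.000000 ± 5.35 against 46.0002 ± 7.41 CPM), with overlapping libraries and no call without ileal library 2 or 3 or ceco-colonic library 1 or 4 (adjusted p 0.0514 to 0.0591). The first 4 of these genes were called with the adipocyte covariate and Timd4 was not (adjusted p = 0.231). With the covariate 6 of the 19 genes were called higher and 1 lower. The summed level of the 19 genes was 6718 to 8205 CPM in ileal and 4601 to 5551 CPM in ceco-colonic libraries. Lyve1 and Marco are on the lymphatic list too, so the higher counts of both lists include them.

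More dendritic cell genes were lower than higher in the ileal node. Of 10 genes of type 1 dendritic cells, the cross-presenting subset, 5 were lower in the ileal node and 1 was higher (median -0.29). Itgae, the CD103 chain of migratory gut dendritic cells, stood at 51.3, 41.2, 45.9 and 40.5 CPM against 84.7, 71.8, 68.5 and 74.98 CPM (log2 fold change -0.75 ± 0.0890, adjusted p = 8.44e-06). Clec9a, a receptor for dead-cell actin that defines the same subset, was the higher one, at 120.5, 102, 116 and 106 CPM against 75.1, 65.1, 76.9 and 61.7 CPM (0.67 ± 0.106, adjusted p = 1.88e-04). These genes of 1 subset went in opposite directions, with no overlap between the nodes for either. Cd8a, carried by resident type 1 cells, was lower (17.1 ± 1.05 against 28.1 ± 2.42 CPM), although not called with the adipocyte covariate (log2 fold change -0.53, without it -0.71, adjusted p = 0.120). With the covariate 1 of the 10 genes was called lower and 1 higher. Of 12 genes of type 2 dendritic cells, 4 were lower and none higher (median -0.39), including Irf4, a factor they need for migration (28.1 ± 3.84 against 48.7 ± 3.93 CPM), Clec10a, a galactose-binding lectin (31.8 ± 2.34 against 52.98 ± 2.20 CPM), and Kmo, a kynurenine pathway enzyme (34.1 ± 5.77 against 63.1 ± 8.04 CPM). Irf4 and Clec10a were called with the covariate and Kmo was not (adjusted p = 0.0872). Ccl17, a chemokine of migratory dendritic cells, was lower too (15.6 ± 3.72 against 34.6 ± 5.86 CPM), while 8 of the 10 migratory genes were not called. Of 10 genes of class II antigen presentation 2 were lower, among them H2-DMb2, a chain of the peptide-loading complex (71.4 ± 3.75 against 96.8 ± 5.57 CPM), and none was higher. Neither was called with the covariate, where the log2 fold change of Ccl17 was -1.06 instead of -1.15 (adjusted p = 0.0583) and that of H2-DMb2 -0.20 instead of -0.44 (adjusted p = 0.386).

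Il12b, made by activated dendritic cells and macrophages, showed a larger gap than these subset genes. It stood at 25.3, 26.01, 25.2 and 32.4 CPM in the ileal and 118, 124, 86.3 and 102 CPM in the ceco-colonic libraries (log2 fold change -1.98 ± 0.154, adjusted p = 8.73e-08). The lowest ceco-colonic library held more than the highest ileal library, and the jejunal (28.4 ± 5.02 CPM), duodenal (31.4 ± 6.04 CPM) and inguinal (48.9 ± 7.79 CPM) means were all below the ceco-colonic mean.

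Type 2 innate lymphoid cells answer alarmins of the tissue, and of their 12 genes 4 were higher and 2 lower in the ileal node (median 0.18). Il17rb, the receptor for interleukin 25, stood at 69.05, 59.8, 60.7 and 53.2 CPM against 28.6, 23.6, 24.3 and 29.2 CPM (log2 fold change 1.20 ± 0.125, adjusted p = 1.92e-06). Il1rl1, the receptor for interleukin 33, lay at 27.7 ± 3.26 against 14.3 ± 2.49 CPM and Arg1, arginase 1, at 8.16 ± 0.355 against 3.52 ± 0.412 CPM. For these 3 genes the libraries did not overlap and the calls held with the adipocyte covariate. Il2ra, the high-affinity interleukin 2 receptor chain shared with other lymphoid cells, was lower (30.9 ± 3.97 against 46.2 ± 3.21 CPM), but not called with the covariate (log2 fold change -0.18, without it -0.58, adjusted p = 0.685).

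Of 12 genes of type 3 innate lymphoid cells tested, 1 was higher and 2 were lower (median -0.15). Over all genes tested 7.43% were higher and 5.32% lower, so counts this small are not read as a difference of the list. Cxcr5, the receptor for CXCL13, was lower (2.64 ± 0.290 against 5.20 ± 0.824 CPM), and not called with the covariate (adjusted p = 0.555) or with counts summed from transcripts (adjusted p = 0.0627). Il22, their cytokine that protects epithelium, stood at 3.96, 2.36, 3.22 and 1.29 CPM against 3.15, 2.11, 2.18 and 1.36 CPM and was not called (adjusted p = 0.815). Of 14 genes of natural killer and type 1 innate lymphoid cells, 2 were lower and none higher (median -0.19), beside 5.32% lower among all genes. Ccl5, a chemokine of cytotoxic cells and 1 of these 2, stood at 634 ± 59.3 against 858 ± 59.5 CPM. Gzmc, outside that list, was lower by more, at 4.003, 5.88, 4.47 and 4.88 CPM against 23.2, 21.2, 14.8 and 20.9 CPM (log2 fold change -2.06 ± 0.161, adjusted p = 9.09e-08). Ccl5 was not called with the covariate (adjusted p = 0.512), whereas Gzmc was. No gene of the natural killer list was called with the covariate.

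T and B lymphocyte genes were mixed, with 2 of 18 higher and 3 lower (median -0.06), the lower ones being Cd8a, Cd8b1 and Trac. Among all genes tested 7.43% were higher and 5.32% lower. The covariate ended the calls of Cd8b1 (adjusted p = 0.201) and Trac (adjusted p = 0.402) as well as that of Cd8a. Trac was also not called without ileal library 2, 3 or 4 or ceco-colonic library 1 or 2 (adjusted p 0.0527 to 0.081) or with counts summed from transcripts (adjusted p = 0.0742). Cd3g, a chain of the T-cell receptor complex, stood at 3.79 ± 0.273 against 2.60 ± 0.564 CPM, and Ms4a1, the B-cell antigen CD20, at 1.85 ± 0.140 against 1.41 ± 0.242 CPM. Cd3g was not called without ileal library 1 or 2 or ceco-colonic library 3 or 4 (adjusted p 0.0527 to 0.0688), and Ms4a1 not without ileal library 2, 3 or 4 or ceco-colonic library 1 or 3 (adjusted p 0.0611 to 0.125). The summed level of the 18 genes overlapped, at 490 to 541 CPM in ileal and 466 to 529 CPM in ceco-colonic libraries.

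Eosinophil and neutrophil genes were lower in the ileal node in 8 of 12 cases and higher in none (median -0.99). Over all genes tested the lower share was 5.32%. Prg2, the major basic protein of eosinophil granules, stood at 1.06, 0.913, 0.856 and 0.674 CPM in the ileal and 4.94, 3.82, 3.08 and 3.24 CPM in the ceco-colonic libraries (log2 fold change -2.10 ± 0.246, adjusted p = 6.75e-06). Ccr3, the eotaxin receptor, lay at 0.841, 0.872, 0.505 and 0.793 CPM against 2.60, 2.66, 5.19 and 5.47 CPM (-2.40 ± 0.398, adjusted p = 2.90e-04). Siglecf, a surface lectin of eosinophils, lay at 0.930, 0.929, 0.737 and 0.764 CPM against 1.98, 1.97, 3.63 and 3.23 CPM (-1.69 ± 0.240, adjusted p = 6.02e-05). Ceco-colonic libraries 3 and 4 held more Ccr3 and Siglecf than ceco-colonic libraries 1 and 2, whereas Prg2 was highest in library 1, and for all 3 genes the nodes did not overlap. Cxcr2, a neutrophil chemokine receptor, was lower as well (14.7 ± 0.839 against 23.6 ± 4.41 CPM). Prg2 and Siglecf were called with the adipocyte covariate, Ccr3 and Cxcr2 were not (adjusted p = 0.0676 and 0.213), and without ceco-colonic library 2 the count of 8 became 5. With the covariate 2 of the 12 genes were called lower, with a median of -0.44.

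Chemokines for inflammatory cells were higher in the ileal node in 3 of 19 cases and lower in 7 (median -0.23). Cx3cl1, a membrane-bound chemokine for monocytes and cytotoxic cells, stood at 30.5, 35.004, 36.8 and 37.1 CPM against 64.9, 65.7, 73.6 and 69.2 CPM (log2 fold change -0.97 ± 0.0764, adjusted p = 9.75e-08). Ccl9, a monocyte and dendritic cell attractant, was lower too (19.7 ± 3.24 against 33.5 ± 4.31 CPM). Cxcl5, a neutrophil attractant, went the other way at 3.61, 5.58, 4.01 and 4.24 CPM against 0.922, 1.31, 1.21 and 1.49 CPM (1.82 ± 0.222, adjusted p = 1.05e-05), as did Cxcl14, a stromal chemokine (18.9 ± 3.77 against 7.07 ± 1.54 CPM). All 4 genes had separate libraries in the 2 nodes and were called with the adipocyte covariate. With the covariate 3 of the 19 genes were called higher and 4 lower. Of 17 homeostatic and gut-homing receptors and ligands 1 was higher and 6 were lower (median -0.19), Cxcl13, Ccl19, Ccl21a, Itgae and Cxcr5 among the lower ones. The receptors that direct cells to the small and the large intestine were not called, with Ccr9 at 31.8 ± 2.56 against 29.6 ± 3.05 CPM (adjusted p = 0.725) and Gpr15 at 3.60 ± 0.358 against 2.96 ± 0.225 CPM (adjusted p = 0.141). Ccl25, the CCR9 ligand (5.67 ± 0.260 against 5.78 ± 0.407 CPM), and Ccl28, a ligand of the related receptor CCR10 (0.302 ± 0.0553 against 0.287 ± 0.0807 CPM), were not called either. Gpr15lg, the GPR15 ligand and 1 of the 6 lower genes, is named after its values were seen. It stood at 4.28, 4.75, 5.35 and 4.24 CPM against 8.27, 6.78, 5.99 and 6.96 CPM with no overlap (log2 fold change -0.59 ± 0.130, adjusted p = 0.00412), and was not called with the covariate (log2 fold change -0.32, adjusted p = 0.342). With the covariate 2 of the 17 genes were called lower and none higher. A missing call does not show that levels are equal.

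Interferon-stimulated genes restrict virus growth and respond to type I and III interferon. Beside 7.43% higher among all genes, 11 of 20 such genes were higher in the ileal node and none lower (median 0.65). For 2 of them, Isg15, a ubiquitin-like modifier, and Ifit3, an RNA-sensing effector, the 200 bases before the RefSeq start are shown because both carry the motif that interferon-activated factors bind. Capitals mark the core of the interferon-stimulated response element, GAAA and GAAA with any 2 bases between them, searched on both strands with overlaps allowed, at chr4:156200819-156201018 (minus strand) and chr19:34583329-34583528 (plus strand) of GRCm38.p6, each written 5′ to 3′ toward the start. The first match begins 78 bases before the start in Isg15 and 156 bases before it in Ifit3.
Isg15: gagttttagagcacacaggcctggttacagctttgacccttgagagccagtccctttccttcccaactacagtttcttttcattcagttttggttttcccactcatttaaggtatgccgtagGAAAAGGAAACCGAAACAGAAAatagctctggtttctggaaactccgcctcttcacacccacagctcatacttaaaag
Ifit3: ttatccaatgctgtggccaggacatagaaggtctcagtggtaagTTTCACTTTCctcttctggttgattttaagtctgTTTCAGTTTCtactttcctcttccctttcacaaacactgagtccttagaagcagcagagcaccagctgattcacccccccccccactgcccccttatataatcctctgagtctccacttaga

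The overlapping matches of Isg15 run together in 1 block and those of Ifit3, on the opposite strand, lie apart. The motif occurred in 3.44% of all 32851 RefSeq windows from 250 bases before to 50 after a start. It was present for 7 of 8 called interferon genes that had a window and for 3 of 6 that were not called. A match describes letters and shows no binding.

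Isg15 stood at 98.9, 225, 137 and 184 CPM in ileal libraries 1 to 4 and at 68.5, 79.3, 98.6 and 90.5 CPM in ceco-colonic libraries 1 to 4 (log2 fold change 0.94 ± 0.244, adjusted p = 0.0141). Ifit3 lay at 136, 329, 203 and 223 CPM against 104, 106, 126 and 119.8 CPM (0.97 ± 0.256, adjusted p = 0.0154). Ileal library 2 was the highest and ileal library 1 the lowest ileal library for both genes, and library 1 lay just above the ceco-colonic range. Mx2 (34.6 ± 10.3 against 16.9 ± 3.25 CPM), Mx1 (295 ± 74.4 against 185 ± 14.8 CPM) and Usp18 (173 ± 38.4 against 112 ± 8.04 CPM), antiviral GTPases and a brake on interferon signalling, showed the same order of ileal libraries at the ends. Without ileal library 2 Isg15 (adjusted p = 0.063) and Ifit3 (adjusted p = 0.0734) were not called, nor was Isg15 without ceco-colonic library 1 (0.0548) or Ifit3 without ceco-colonic library 2 (0.0513). The count of 11 became 3 without ileal library 2, 4 without ceco-colonic library 1, 5 without ileal library 4, 6 without ceco-colonic library 2 and 7 without ceco-colonic library 4, and it was 16 without ileal library 1. With the adipocyte covariate 1 of the 20 genes was called, while the median was 0.69.

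Complement genes were higher in the ileal node in 10 of 16 cases and lower in none (median 0.29), beside 7.43% higher among all genes. Cd55, which shields cells from complement, stood at 227, 192, 215 and 229 CPM against 112, 108, 94.8 and 87.8 CPM (log2 fold change 1.10 ± 0.114, adjusted p = 1.68e-06). C2, of the classical pathway (244 ± 15.2 against 155 ± 12.8 CPM), and Cfb, of the alternative pathway (703 ± 42.9 against 533 ± 29.5 CPM), followed without overlap and were called with the covariate. The list also holds Cfd, an adipocyte gene, and without ceco-colonic library 4 the count of 10 became 5. With the adipocyte covariate the count was 5 as well.

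The aryl hydrocarbon receptor senses dietary and microbial ligands, and 3 of 8 of its targets were higher in the ileal node (median 0.20). Cyp1b1, a cytochrome that the receptor induces, stood at 314, 239, 313 and 339 CPM against 108, 97.4, 98.03 and 89.9 CPM (log2 fold change 1.62 ± 0.109, adjusted p = 1.82e-08), with 301 ± 32.1 CPM in the jejunal node. Nqo1, a quinone reductase, was higher too (6.63 ± 0.706 against 3.42 ± 0.209 CPM), and so was Cyp1a1, the most specific of the targets (0.811 ± 0.236 against 0.412 ± 0.162 CPM), whose libraries overlapped and whose call ended without ileal library 1 (adjusted p = 0.0601) and with the covariate (adjusted p = 0.434). Genes of lipid uptake and export were higher in 6 of 18 cases and lower in 2 (median 0.27), with Msr1, a scavenger receptor of macrophages, at 119, 114, 120.01 and 128 CPM against 58.01, 59.7, 64.2 and 54.2 CPM (1.03 ± 0.118, adjusted p = 5.63e-06). Plin2, a lipid droplet coat protein of many cell types, was higher (240.5 ± 17.3 against 148 ± 11.01 CPM), while Trem2, a lipid receptor of macrophages, was lower (11.97 ± 0.818 against 18.8 ± 1.29 CPM). These 3 were called with the covariate. Of the 18 genes, 3 were then called higher and 1 lower.

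None of 13 sterol synthesis genes was called in edgeR's quasi-likelihood test between the 2 nodes (median 0.05), although 3 had an unadjusted p under 0.05 and DESeq2 called 1, higher in the ileal node. For cell division 4 of 12 genes were lower and none higher (median -0.29), with Top2a, a topoisomerase of dividing cells, at 62.9 ± 4.56 against 84.6 ± 5.93 CPM, a call lost with the covariate (adjusted p = 0.510), and the count was 2 without any 1 of the ceco-colonic libraries and 1 without ileal library 1 or 4. Of 18 genes of bacterial sensing 2 were higher and 3 lower (median 0.08), Nod2, a sensor of muramyl dipeptide, among the lower ones (13.2 ± 1.29 against 18.4 ± 1.46 CPM). With the covariate none of the 18 was called in edgeR's quasi-likelihood test (Nod2 log2 fold change -0.21, without it -0.48, adjusted p = 0.411), and the higher count of 2 became 0 without ileal library 1 or 3 or ceco-colonic library 2 or 4, and 1 without ileal library 4 or ceco-colonic library 1 or 3. Bile acid and short-chain fatty acid receptors had 1 higher and 2 lower of 11 (median -0.12), mast cells 1 higher of 11 (median -0.04), plasmacytoid dendritic cells 1 higher and 2 lower of 8 (median -0.01) and immediate early genes 1 higher of 11 (median -0.04). These counts stand beside 7.43% higher and 5.32% lower among all genes and are not read as differences of the lists. The higher count was 0 for both plasmacytoid and immediate early genes without ileal library 2, 3 or 4 or ceco-colonic library 1, 2 or 4. The lower plasmacytoid count was 0 without ileal library 4 and 1 without ceco-colonic library 1. For bile acid and short-chain fatty acid receptors the lower count was 1 without ileal library 3 or 4 or ceco-colonic library 2 or 4 and 3 without ceco-colonic library 1, and for mast cells the higher count was 2 without ceco-colonic library 1. In every list with 3 or fewer calls in a direction, leaving out any 1 of the 8 libraries moved that count by at most 2.

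**Figure D5:**
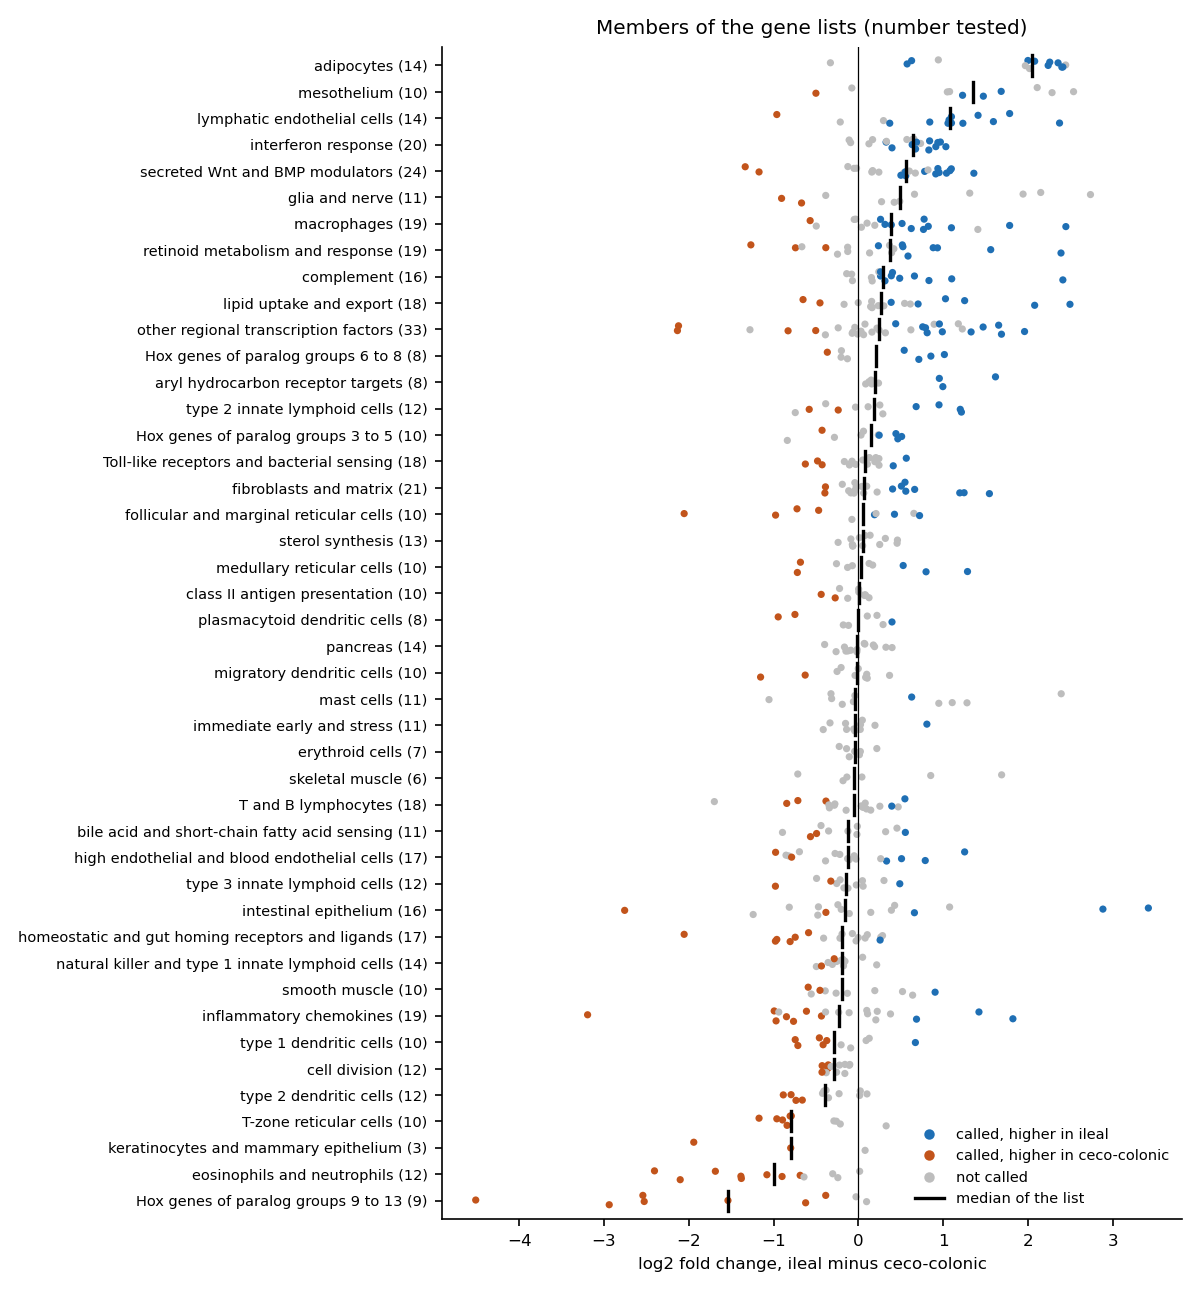
Log2 fold change of the ileal minus the ceco-colonic node (x axis) for the tested members of each of the 44 gene lists (y axis, with the number tested), 1 point per gene, coloured by call, and a black bar at the median of the list. Adipocyte, mesothelial, lymphatic and interferon lists have the highest medians, and posterior Hox, granulocyte and T-zone reticular lists are among the lowest.

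Markers of other neighbouring tissues were compared in the same way, since a dissected node can hold some of them. Of 10 mesothelial genes 3 were higher and 1 lower in the ileal node (median 1.35), with Gpm6a, a membrane glycoprotein, at 17.4 ± 1.91 against 7.42 ± 1.46 CPM and Wt1, a zinc-finger factor of mesothelium, at 1.94 ± 0.167 against 0.699 ± 0.0713 CPM, and their summed level was 23.2 to 27.1 CPM in ileal and 10.8 to 13.2 CPM in ceco-colonic libraries. Msln, a defining mesothelial gene, had 1.11 ± 0.165 against 1.17 ± 0.424 CPM, without a call. Intestinal epithelium had 3 higher and 2 lower genes of 16 (median -0.16), with summed levels of 12.5 to 13.6 CPM and 10.4 to 12.2 CPM. Fabp2, the enterocyte fatty acid carrier (0.209 ± 0.0888 against 0.0276 ± 0.00759 CPM), was higher and Car1, a carbonic anhydrase of colon epithelium (0.0295 ± 0.0133 against 0.202 ± 0.0230 CPM), lower, both at a trace, and Car1 was not called without ileal library 3 (adjusted p = 0.0527). Smooth muscle genes had 1 higher and 2 lower of 10 (median -0.20), with Des, desmin, at 106 ± 6.35 against 160.5 ± 5.80 CPM. With the adipocyte covariate Wt1 (log2 fold change 0.77, adjusted p = 0.0764), Fabp2 (1.76, adjusted p = 0.183) and Des (-0.40, adjusted p = 0.269) were not called. By edgeR no pancreatic gene of 14, no erythroid gene of 7 and no skeletal muscle gene of 6 was called, at an unadjusted p under 0.05 the counts were 0, 0 and 1, and DESeq2 and limma-voom called 0 of each. Cpa1, a pancreatic carboxypeptidase, was at 0.156 ± 0.0137 against 0.170 ± 0.0551 CPM. Of 11 glial and nerve genes, Tubb3 (0.953 ± 0.142 against 1.78 ± 0.206 CPM) and Prph (1.52 ± 0.248 against 2.42 ± 0.355 CPM) were lower and the other 9 were not called, while the median was 0.49 and the summed level 13.1 to 22.03 CPM in ileal and 12.9 to 14.2 CPM in ceco-colonic libraries. Without ileal library 3, 2 genes of this list were called higher, and with the adipocyte covariate neither Tubb3 (adjusted p = 0.0608) nor Prph (adjusted p = 0.0675) was called. Trp63 and Csn2 of 3 keratinocyte and mammary genes were lower too. The part of mesothelial and epithelial cells in the results was not tested.

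Each node was also set beside the jejunal node, which drains the segment upstream. These 3 comparisons share libraries, so their values are given side by side. Between ileal and jejunal nodes 20 genes were called (0.068%), 14 higher (0.0476%) and 6 lower (0.0204%) in the ileal node. Between ceco-colonic and jejunal nodes 3586 were called (12.2%), with 5.06% of all genes higher and 7.14% lower in the ceco-colonic node. Because the contrast of ileal and jejunal nodes is the difference between their contrasts with the ceco-colonic node, those 20 genes are the ones for which that difference itself passed the test. For Col6a6 the log2 fold change was -0.12 ± 0.177 for ileal minus jejunal and -3.97 ± 0.202 for ceco-colonic minus jejunal. The same pair of values was 0.05 ± 0.179 and -1.73 ± 0.185 for Lyve1, -0.06 ± 0.149 and 1.92 ± 0.154 for Il12b, and 0.76 ± 0.265 and 3.95 ± 0.288 for Ccl8. For these 4 genes the ileal and jejunal nodes were not called apart (adjusted p 0.733 to 0.997), which does not show that they are equal.

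Of the 9 posterior Hox genes tested, Hoxa9, Hoxa10, Hoxc9 and Hoxc10 were also called between ileal and jejunal nodes. Hoxc10 stood at 0.0762, 0.271, 0.147 and 0.121 CPM in jejunal libraries 1 to 4, at 1.11, 1.54, 0.552 and 1.48 CPM in ileal libraries 1 to 4 and at 6.70, 7.40, 6.42 and 6.40 CPM in ceco-colonic libraries 1 to 4. Its log2 fold change was 2.95 ± 0.398 for ileal minus jejunal (adjusted p = 0.00389) and -2.53 ± 0.351 for ileal minus ceco-colonic (adjusted p = 4.52e-05). Hoxc9 lay at 1.59 ± 0.116, 3.36 ± 0.579 and 5.18 ± 0.208 CPM in the same order of nodes, Hoxa9 at 1.05 ± 0.180, 1.91 ± 0.175 and 5.56 ± 0.468 CPM, Hoxa10 at 0.299 ± 0.0637, 0.632 ± 0.102 and 3.68 ± 0.547 CPM, and Irx1 at 0.411 ± 0.178, 1.34 ± 0.452 and 6.33 ± 0.954 CPM. For these 5 genes the ileal node lay between its neighbours, called apart from both, with no overlap of libraries on either side. In the inguinal node, Hoxc10 (6.78 ± 0.371 CPM) and Hoxc9 (6.63 ± 0.441 CPM) had means at or above those of the ceco-colonic node.

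Cyp1a1 stepped the other way, from 2.70, 2.40, 1.92 and 1.83 CPM in jejunal to 1.14, 0.619, 0.660 and 0.827 CPM in ileal libraries (log2 fold change -1.45 ± 0.246, adjusted p = 0.0246). Ms4a1, the CD20 gene, was also lower in the ileal than in the jejunal node (1.85 ± 0.140 against 2.92 ± 0.237 CPM). The genes that follow, except Prph, fall outside the naming rule and are named because they were called, after their values were seen. Sqle and Stard4, genes of sterol synthesis and transport, were lower in the ileal node, with Sqle at 19.6 ± 2.26 against 28.7 ± 0.455 CPM, and so was Sox11, a factor of immature cells. Coch, the secreted protein cochlin made by follicular dendritic and reticular cells, was higher, at 26.9, 30.9, 24.7 and 33.3 CPM in ileal and 7.31, 6.99, 7.97 and 7.64 CPM in jejunal libraries (log2 fold change 1.95 ± 0.242, adjusted p = 0.00179), with the ceco-colonic mean at 24.001 ± 6.14 CPM. Ms4a8a (5.29 ± 0.538 against 3.09 ± 0.145 CPM), Scn3b, Prph, Dmrt2, Tm4sf20 and Pcp4 were higher as well. The count of 20 was 7 without jejunal library 1, 8 without ileal library 1, 10 without ileal library 2, 10 without ileal library 4, 2 when only these 2 nodes were fitted and 96 with DESeq2.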

How the data were processed

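RNA of whole nodes was extracted with PicoPure and prepared as poly(A)-selected NEBNext libraries, per the labels' protocols. The authors deposited a gene table of estimated counts for 20 libraries and, per library, transcript files with estimated counts, TPM and effective length, per the file headers. The submitters' processing notes name kallisto, limma, edgeR and the builds GRCm39 and mm10, without roles or versions. The gene table matched TPM summed per gene and scaled by length, within 0.01 on the log2 scale for 99.7% of values of 12483 genes with at least 500 counts in every library. With such scaling a switch between long and short isoforms does not by itself change a count.

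Counts were rounded and filtered with filterByExpr (count minimum 10, total minimum 15), which left 29411 of 56258 genes. TMM-scaled CPM and edgeR 4.0.16 (R 4.3.3) quasi-likelihood tests were used in 1 fit of all 20 libraries with a mean per node and Benjamini-Hochberg adjustment at 0.05. All 3 comparisons of the ileal, ceco-colonic and jejunal nodes came from this fit. Alternatives were DESeq2 1.42.0, voom in limma 3.58.1, other scaling, no filter, fewer groups, a replicate block, the summed adipocyte level as a covariate, summed transcripts and leaving out each library. On simulated counts of 29411 genes for the comparison of ileal with ceco-colonic nodes, edgeR recovered 41% of 100 genes changed 1.5-fold and 59% of 100 changed 2-fold, with 0.99% of its calls false. DESeq2 recovered 44% and 67% with 19.0% false. Only 200 genes were changed in the simulation, beside 3750 called in the data. The adjustment depends on how many genes change, so these shares need not hold for the data.

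The 44 gene lists were chosen with earlier results of these data known. Genes were named if among the 15 highest or lowest fold changes that were called, reached 5 CPM and did not overlap, if Hox genes, if among up to 5 called genes of a list (its 2 most abundant where none was called), or if on a short fixed list. Some genes are not reported here.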

Additional observations from a re-analysis of the deposited data

Results flagged for a closer look

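Of 215 genes open to naming, 189 were picked for closer description. For each of these in each node, the library farthest from the others was compared with the whole range of the 4 libraries. In 16 of 378 such groups the gap exceeded Dixon's limit for 4 values, which chance alone passes in about 1 in 20 groups. The count found is below that share, so it is not read as a sign of deviant libraries. The groups that passed the limit are listed for reference.

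In the ileal node, library 2 was the one beyond the limit for several genes. It was the highest for Mmp3, with 26.4 CPM beside 7.46 to 10.6 CPM in the other ileal libraries, and for Ccl9, with 24.5 CPM beside 17.6 to 18.4 CPM. It was the lowest for Meis2 (27.3 CPM beside 32.6 to 33.5), Nkx2-3 (20.1 beside 22.6 to 22.8), Flt4 (149 beside 182 to 187) and Csf1r (843 beside 1069 to 1099).

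Ileal library 4 was the highest for Il12b, with 32.4 CPM beside 25.2 to 26.01 CPM. The same library was the lowest for Ccl19 (208 CPM beside 277 to 290.3), Cd8b1 (8.47 beside 11.2 to 11.4), Top2a (56.1 beside 64.7 to 65.95) and Ccr9 (27.98 beside 32.7 to 33.3).

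In the ceco-colonic node, library 1 was the lowest for Hoxb4, with 10.5 CPM beside 12.8 to 13.1 CPM, and library 3 the lowest for Ccl17, with 25.9 CPM beside 37.1 to 38.2 CPM. Library 3 was also the highest for Smtn (36.3 CPM beside 27.6 to 28.97), library 2 for Ccl21a (3959.6 beside 3233 to 3303) and library 4 for Cyp26b1 (33.2 beside 19.4 to 20.8).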

How the results depend on the processing

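The count of 3750 genes between ileal and ceco-colonic nodes was 1100 with the adipocyte covariate, 921 with a minimum fold of 2 and 2637 to 3736 when 1 library was left out. Between ileal and jejunal nodes the count of 20 was 96 with DESeq2, 2 with only these groups in the fit, 38 with a replicate block and 7 to 21 when 1 library was left out. For ceco-colonic against jejunal the count of 3586 was 1448 with the covariate and 2665 to 3830 with 1 library left out. Among 189 genes picked from the 215 open to naming, the count of 165 called genes was 82 with the covariate and 136 to 152 with 1 library left out. The count of 223 called list genes was 90 with the covariate and 165 to 206 with 1 library left out. With the covariate the log2 fold change turned to -0.30 for Scd1, -0.00282 for Gpd1, -0.0416 for Rbp4, -0.21 for Car3, -0.35 for Cidec, -0.0248 for Lipe and -0.22 for Adipoq, and to 0.17 for Cidec, ceco-colonic against jejunal, 0.0285 for Lipe, ceco-colonic against jejunal, and 0.19 for Adipoq, ceco-colonic against jejunal. Cidec, Lipe and Adipoq are among the adipocyte genes summed in the covariate, so a loss of their difference is built into that fit. For the other genes the cause was not tested.

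Of the 165 genes, 78 were called under every alternative run, 122 under every one other than the covariate, and 42 lost their call without at least 1 library. Higher genes made up 58.3% of the calls and 55.1% to 59.8% under the alternatives. Same-numbered ileal and ceco-colonic libraries correlated in their deviations at 0.157, 0.0594, 0.140 and 0.0609, and each library correlated best with its own number. Not all values passed 0.1, so numbers were not taken as pairs, which does not show that the libraries were unpaired. A replicate block gave 4411 calls in the fit of all nodes and 5454 in a fit of the 8 libraries, added after seeing the data. The 4 libraries per node limit what could be called. The simulated recovery of 41% at 1.5-fold was obtained with only 200 changed genes and does not measure that limit for these data.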
